A study of Sus scrofa with 23 samples.

Results

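Glycosyltransferases build the sugar chains of secreted and membrane proteins and of lipids, and 43 genes of this class were followed through porcine pre-implantation development, with the α1,3-fucosyltransferase FUT9 among them. They were chosen by name, from the start of the Ensembl symbol. It had to be FUT, GALNT, MGAT or ALG followed by a digit, or B3GA, B3GN, B3GL, B4GAL, ST3GAL, ST6GAL, ST8SIA, GCNT, POMG, POMT, EXT1, EXT2 or EXTL. The rule itself uses no measured value, but it was set with earlier results of these data known. They are 43 of the 8603 genes in the table of expression values. The Ensembl annotation holds 106 symbols that meet the rule, and the other 63 were not analysed here. The deposited table is named for differentially expressed genes, and by which test its genes were drawn is not given in the sources used here. Each count, and each share of all genes called, is therefore one within a table that may have been selected for change.

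The study compared the transcriptomes of cloned and in vivo fertilized pig embryos, to see where clones depart from normal development. IV-D stands for Duroc material produced in vivo, that is, MII oocytes of 2-year-old Duroc sows and embryos of inseminated Duroc sows that all had 1 Duroc boar as sire and so were paternal half-siblings. NT-D embryos were clones made by nuclear transfer from ear fibroblasts of that boar at 1 year of age, and NT-LW embryos were clones whose donor fibroblasts came from the ear of a Laiwu boar, a Chinese breed, also 1 year old, so each clone group rests on the cell line of 1 animal. The recipient oocytes of both clone groups were matured in vitro, and the study describes them as coming from hybrid sows although the sample label names the Duroc strain. Clones were cultured in PZM3 medium and low oxygen, and about 5 to 10 were pooled for a sample. The study states that the clones were all male, while IV-D embryos were not sexed and their samples mixed males and females.

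Stages are written OC for the MII oocyte, 1C, 2C, 4C and 8C for the cleavage stages by number of cells, MO for the morula, and IT and TE for the parts of the blastocyst. IT is the part that held the inner cell mass (ICM) together with trophectoderm, and TE is trophectoderm alone. IV-D and NT-D had 8 libraries each, from OC to TE, and NT-LW had 7, from 1C to TE. The library called NT-D OC is that of recipient oocytes and is the starting point of either clone group, and all comparisons with in vivo embryos use the same 8 IV-D libraries. Each condition had 1 library, so no value has an error between embryos and no test between conditions was possible. The added replicates and the donor cells were not analysed here. In the study, replicates of 4C embryos varied more than those of the other stages, and each 4C value here rests on 1 library.

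N-glycans are assembled on the lipid dolichol by the ALG enzymes, moved as a whole onto asparagine residues, trimmed, and then branched by the MGAT enzymes. O-glycans of the mucin type are started by the GALNT enzymes and extended by GCNT, B3G and B4GAL enzymes, while fucosyltransferases and sialyltransferases add the outermost sugars. In early mammalian embryos such outer sugars form stage-specific surface antigens, among them the Lewis x structure known as SSEA-1, which needs an α1,3-fucosyltransferase such as FUT9. The cleavage stages are also when oocyte RNA is lost and transcription from the embryo's own genome begins, which in the pig happens mainly in the middle cleavage stages.

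Sequences are shown for 3 members on which the results turn, FUT9 because of its narrow window of expression, and ALG3 and MGAT5B because they moved in opposite directions at the 4C to 8C step. All were read from the RefSeq annotation of Sscrofa11.1, the build to which the study's reads were aligned. FUT9 lies on an unplaced scaffold, on the minus strand, as a single exon of 14245 bases from position 51038 to 65282, and its coding sequence runs from 62899 to 64071. The counted length of FUT9 in the expression values was 1173 bases, equal to this coding sequence, so fragments in its long untranslated parts did not enter the values. The first 150 coding bases, with the start codon in capitals, are the following.
FUT9 coding start: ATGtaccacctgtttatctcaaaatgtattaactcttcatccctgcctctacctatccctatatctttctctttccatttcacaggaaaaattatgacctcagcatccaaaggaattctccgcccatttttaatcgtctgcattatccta

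The 250 bases before the annotated start of ALG3 at chr13:122148778-122149027, minus strand, hold 14 CpG dinucleotides, and those of MGAT5B at chr12:4730099-4730348, minus strand, hold 49, the highest count among the 41 members with such a window. Capitals mark the CpG dinucleotides in both.
ALG3 promoter: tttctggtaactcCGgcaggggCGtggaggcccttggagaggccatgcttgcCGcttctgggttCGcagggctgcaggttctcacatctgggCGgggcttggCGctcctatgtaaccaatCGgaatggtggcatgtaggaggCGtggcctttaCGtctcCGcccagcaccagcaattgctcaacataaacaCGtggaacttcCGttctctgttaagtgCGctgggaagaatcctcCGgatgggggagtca
MGAT5B promoter: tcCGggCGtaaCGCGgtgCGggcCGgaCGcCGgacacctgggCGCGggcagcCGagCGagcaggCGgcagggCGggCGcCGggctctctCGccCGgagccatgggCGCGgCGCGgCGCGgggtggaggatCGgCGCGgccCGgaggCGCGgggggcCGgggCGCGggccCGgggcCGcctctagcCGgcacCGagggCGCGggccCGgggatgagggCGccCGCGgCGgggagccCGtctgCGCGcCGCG

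The median count of CpG dinucleotides in the window was 16 for the 41 members and 16 for the 6849 genes of the table that have one. It was 18 for the 12 members with their highest IV-D level up to 2C and 15 for the 25 members with their highest level from 8C on. The letters CCAAT, searched on both strands, stood in 13 of 41 member windows and in 34.4% of all windows, and GGGCGG, likewise on both strands, in 23 of 41 and in 57.0%. The window of ALG3 held both, that of MGAT5B held GGGCGG and not CCAAT. These matches describe the letters alone.

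RNA was amplified by the SMART-Seq v4 method, which primes on poly(A), and the values are FPKM, fragments scaled to gene length and library depth of each library. Levels of different genes rest on the length counted for each, and levels of different libraries on the scaling, since median-ratio size factors of the libraries ran from 0.5611 to 1.579. Whole fragment numbers could be recovered from the steps between FPKM values for 43 of 43 members, at depths of 14952784 to 22991067 fragments per library. At these depths 3 fragments on a gene of 1 kb correspond to 0.130 to 0.201 FPKM. Intervals given for ratios are exact 95% intervals from the fragment numbers and cover counting error only, not variation between embryos. The fold rule for calling a change was a difference in log2(FPKM + 1) above 1, with the higher of both libraries at 1 FPKM or more, and "rose", "fell", "higher" and "lower" refer to it. In such bulk samples fewer cells of a type and less RNA per cell cannot be told apart.

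Marker lists for the labelled material were read first. Summed FPKM of 9 oocyte transcripts was 4687 in IV-D OC and 5268 in NT-D OC. It was 61.0 at 8C and 11.8 at MO in IV-D, against 409 and 381 in NT-D and 461 and 54.6 in NT-LW. The sum was thus larger in the clones at both stages. Of 9 inner cell mass markers the table holds 2, whose summed FPKM was 13.5 to 33.4 in the IT libraries and 2.11 to 3.84 in the TE libraries, with NANOG at 0 in all 3 TE libraries. Trophectoderm markers (7 of 11 in the table) summed to 1424 FPKM in IT and 1348 in TE of IV-D, so that sum did not set the parts of IV-D apart. They summed to 1261 and 1976 in NT-D and 1737 and 2922 in NT-LW. KRT8 and KRT18 made up most of these sums. In IT and TE of IV-D GATA3 stood at 5.42 and 14.0 FPKM and DAB2 at 137 and 182, while the other markers were below their IT level in TE. At MO the list summed to 487 in IV-D, 667 in NT-D and 185 in NT-LW. In NT-LW and IV-D morulae KRT8 stood at 19.8 and 142 FPKM and KRT18 at 14.5 and 200, while DAB2 stood at 126 and 114. Fibroblast markers (6 of 14 in the table) summed at 4C to 5.57 FPKM in IV-D, 32.1 in NT-D and 31.4 in NT-LW. At 1C they summed to 25.8 in IV-D, 27.1 in NT-D and 16.6 in NT-LW, so at that stage they did not set the clones apart. Cumulus cell markers (2 of 11) summed at 4C to 2.84, 6.11 and 19.6. Most of this was HAS2, at 2.38, 5.21 and 18.8 FPKM, which stood at or below 0.111 FPKM in every library up to 2C. GREM1, the other marker, was at 0.460, 0.901 and 0.802 FPKM at 4C and above 1 FPKM in every library up to 2C.

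Most of the 43 members were detected, but at very different levels. The highest FPKM was at least 10 for 31 members and lower for 12, and 11 members stood at 1 FPKM or more in every library. ALG8, which adds a glucose to the lipid-linked N-glycan precursor, reached 279.8 FPKM and MGAT4A, which starts the β1,4-linked branch of N-glycans, 209 FPKM, while 10 members had 0 fragments in at least 1 library. Summed over the members, FPKM in IV-D went from 890.3 at OC and 785 at 1C to 443 at MO and 543 in IT. In NT-D the sum was 1056 at 4C against 563 in IV-D, and in NT-LW it was 1035. The member with the highest level was MGAT4A at IV-D OC and 1C, ALG8 at 2C, FUT9 at 4C, ALG6 at 8C, B3GNT2 at MO, and GALNT11 in IT and TE.

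**Figure D1:**
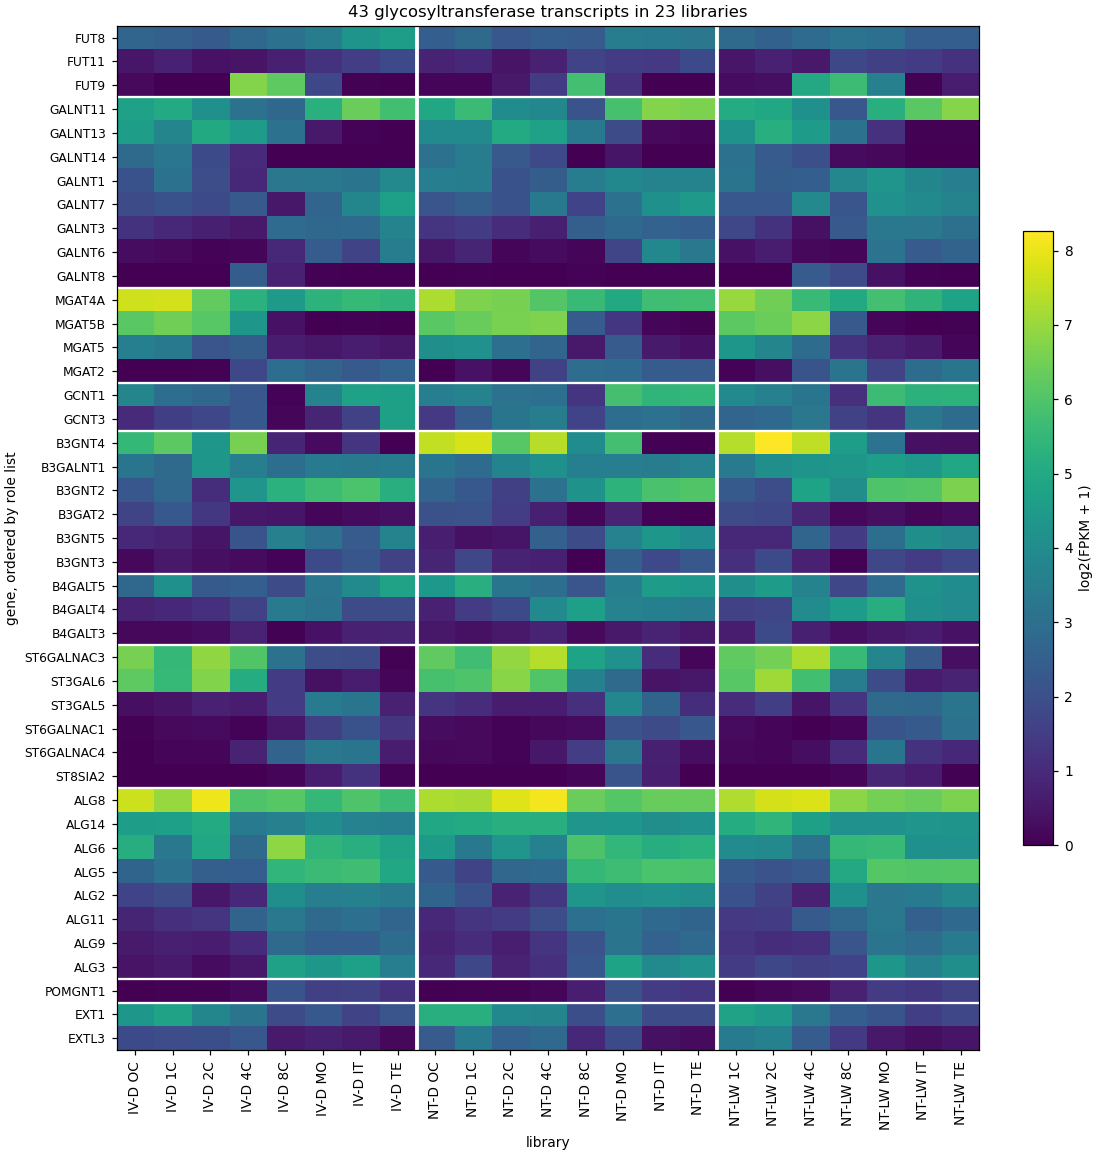
Levels of the 43 members (rows, ordered by role) in the 23 libraries (columns, by embryo group and stage), as log2(FPKM + 1) on a color scale. FUT9 is bright at 4C and 8C in IV-D and NT-LW and at 8C in NT-D, MGAT5B and ST3GAL6 are bright up to 4C, and most ALG genes brighten from 8C on.

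Among 42 members that reached 1 FPKM in IV-D, 12 had their highest level up to 2C, 4 at 4C, 7 at 8C and 19 from MO on. The 4 members highest at 4C were FUT9, B3GNT4, GALNT8 and EXTL3. The share at 4C was 9.52% of members and 14.6% of all genes, and in TE, where 10 members had their highest level, 23.8% against 13.1%. B4GALT3 was the member below 1 FPKM in all IV-D libraries.

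Fucosyltransferases were represented by 3 of 8 annotated genes, and FUT9 had the sharpest course of them. FUT9 in IV-D stood at 0.160 FPKM at OC, 0 at 1C, 0 at 2C, 106 at 4C, 72.6 at 8C, 2.43 at MO, 0.0439 in IT and 0 in TE. In NT-D, FUT9 was at 0.0936 FPKM at OC, 0.106 at 1C, 0.471 at 2C, 1.70 at 4C, 54.6 at 8C, 1.26 at MO, 0 in IT and 0 in TE. NT-LW embryos held FUT9 at 0.209 FPKM at 1C, 0.252 at 2C, 30.9 at 4C, 49.9 at 8C, 11.2 at MO, 0.0396 in IT and 0.579 in TE. In IV-D the transcript was high at 4C and 8C and low or at 0 elsewhere, NT-D reached it 1 stage later, and NT-LW had an intermediate level at 4C and kept more at MO. In fragments, IV-D held 0 at 2C and 1974 at 4C, a level at least 954-fold higher when the 0 is set to 3 fragments in that library. NT-D held 10 and 30 fragments at the same stages, and NT-LW 6 and 695. At 4C the FUT9 ratio to IV-D was 0.0160 (95% interval 0.0108 to 0.0230) in NT-D and 0.292 (95% interval 0.267 to 0.318) in NT-LW, log2 differences of -5.31 and -1.75. Both were counted as lower. One stage later the groups stood closer, with ratios of 0.752 (95% interval 0.699 to 0.809) in NT-D and 0.688 (95% interval 0.635 to 0.745) in NT-LW, and neither was counted as changed. At MO the ratio for NT-LW was 4.60 (95% interval 3.45 to 6.22), counted as higher, and that for NT-D 0.521 (95% interval 0.320 to 0.828), not counted.

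FUT8, the enzyme that adds the core fucose of N-glycans, was expressed throughout. FUT8 in IV-D stood at 5.52 FPKM at OC, 4.83 at 1C, 4.02 at 2C, 5.96 at 4C, 7.52 at 8C, 10.1 at MO, 18.3 in IT and 23.8 in TE. In NT-D, FUT8 was at 4.59 FPKM at OC, 6.19 at 1C, 3.76 at 2C, 4.48 at 4C, 4.21 at 8C, 10.3 at MO, 9.61 in IT and 8.59 in TE. NT-LW embryos held FUT8 at 6.19 FPKM at 1C, 4.92 at 2C, 6.42 at 4C, 7.81 at 8C, 7.11 at MO, 4.59 in IT and 4.58 in TE. In IV-D it was highest in the blastocyst parts, while both clone groups stayed at or below 10.3 FPKM at every stage, with their highest levels at MO in NT-D and at 8C in NT-LW. FUT8 in TE had a ratio to IV-D of 0.361 (95% interval 0.321 to 0.405) in NT-D and 0.192 (95% interval 0.167 to 0.221) in NT-LW, both counted as lower. FUT11, from the α1,3 branch of the family, ranged from 0.320 to 2.62 FPKM over the libraries, and its exons overlap those of SEC24C on the same strand, so reads of both could not be told apart.

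**Figure D2:**
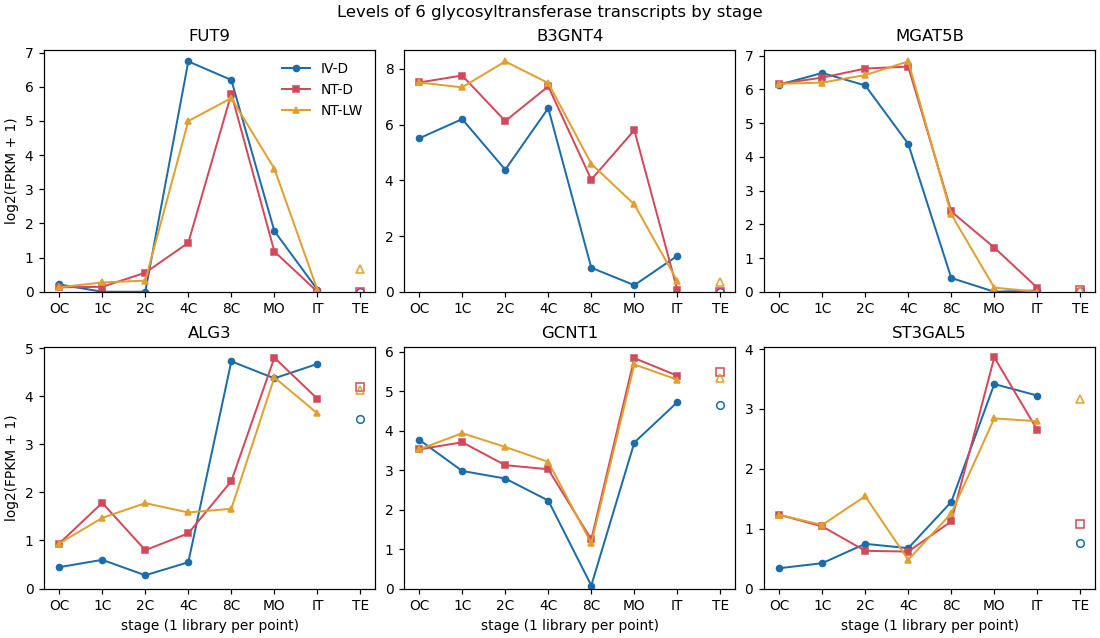
Time courses of 6 members, log2(FPKM + 1) against stage, with 1 library per point for IV-D, NT-D and NT-LW. Lines join OC to IT, the open symbols at the right are TE, and the clones share 1 OC library. FUT9 rises between 2C and 4C in IV-D and NT-LW and between 4C and 8C in NT-D, and ALG3 rises between 4C and 8C in IV-D and between 8C and MO in both clone groups, with a smaller rise of NT-D at 4C to 8C that was lost after median-ratio scaling.

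The GALNT enzymes attach the first sugar of mucin-type O-glycans to serine and threonine, and 8 of 18 annotated genes were in the table. They fell into genes of the oocyte and cleavage stages and genes of the late stages. GALNT13 in IV-D stood at 23.03 FPKM at OC, 12.5 at 1C, 31.6 at 2C, 22.04 at 4C, 7.66 at 8C, 0.481 at MO, 0.0461 in IT and 0 in TE. In NT-D, GALNT13 was at 14.1 FPKM at OC, 14.1 at 1C, 32.3 at 2C, 25.5 at 4C, 9.18 at 8C, 2.78 at MO, 0.155 in IT and 0.115 in TE. NT-LW embryos held GALNT13 at 17.5 FPKM at 1C, 35.7 at 2C, 22.2 at 4C, 7.52 at 8C, 1.28 at MO, 0.0416 in IT and 0.0338 in TE. GALNT13 was thus present up to 8C in all groups, was lost in the blastocyst, and stood higher in NT-D than in IV-D at MO, with a ratio of 5.77 (95% interval 3.98 to 8.60).

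GALNT11 showed the opposite shape, with a low point at 8C. GALNT11 in IV-D stood at 25.8 FPKM at OC, 32.1 at 1C, 16.8 at 2C, 7.42 at 4C, 5.92 at 8C, 37.2 at MO, 82.1 in IT and 53.7 in TE. In NT-D, GALNT11 was at 29.4 FPKM at OC, 48.3 at 1C, 15.4 at 2C, 13.5 at 4C, 3.34 at 8C, 57.1 at MO, 105 in IT and 97.5 in TE. NT-LW embryos held GALNT11 at 32.8 FPKM at 1C, 29.8 at 2C, 16.9 at 4C, 3.77 at 8C, 35.7 at MO, 70.2 in IT and 108 in TE. All groups had their lowest GALNT11 level at 8C and their highest in a blastocyst part, and at 4C the NT-LW level was 2.28 (95% interval 1.996 to 2.62) times that of IV-D. GALNT7, which acts on peptides that already carry such a sugar, had its lowest level from 1C on at 8C too. GALNT7 in IV-D stood at 2.79 FPKM at OC, 3.28 at 1C, 2.62 at 2C, 3.98 at 4C, 0.441 at 8C, 5.50 at MO, 13.0 in IT and 24.2 in TE. In NT-D, GALNT7 was at 3.48 FPKM at OC, 4.69 at 1C, 3.25 at 2C, 9.19 at 4C, 2.16 at 8C, 7.59 at MO, 16.6 in IT and 20.6 in TE. NT-LW embryos held GALNT7 at 3.78 FPKM at 1C, 3.70 at 2C, 14.0 at 4C, 3.54 at 8C, 17.3 at MO, 14.6 in IT and 11.96 in TE. At 4C the GALNT7 ratio to IV-D was 2.31 (95% interval 1.97 to 2.71) in NT-D and 3.51 (95% interval 3.04 to 4.07) in NT-LW, and at 8C it was 4.91 (95% interval 3.35 to 7.38) and 8.03 (95% interval 5.55 to 11.97), all counted as higher.

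GALNT8 had a course like that of FUT9 at a far lower level. IV-D held 146 GALNT8 fragments at 4C, that is 4.46 FPKM, and 0.707 FPKM at 8C, with 0 fragments from OC to 2C. NT-LW reached 4.15 FPKM at 4C and 2.72 at 8C. NT-D held 0 fragments at 4C and at most 0.0502 FPKM in any library. NT-D therefore lacked a GALNT8 signal that both other groups had, and the IV-D level at 4C was at least 46.1-fold higher against 3 fragments. GALNT14 was highest at 1C in each group, 8.39, 10.2 and 7.76 FPKM in IV-D, NT-D and NT-LW, and had 0 fragments in IV-D from 8C on. GALNT1 was lowest at 4C in IV-D, 0.947 FPKM, against 4.36 in NT-D and 4.51 in NT-LW. GALNT3 and GALNT6 belonged to the late genes, with highest levels of 11.9 FPKM in IV-D TE and 13.5 FPKM in NT-D IT. GALNT6 lies on an unplaced scaffold, and its exons overlap CELA1 on the same strand.

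The MGAT enzymes add the branches of N-glycans, and 4 of 9 annotated genes were measured. MGAT5B, which makes a β1,6 branch mainly on O-mannosyl glycans, was an oocyte transcript. MGAT5B in IV-D stood at 69.5 FPKM at OC, 88.7 at 1C, 68.5 at 2C, 19.9 at 4C, 0.327 at 8C, 0 at MO, 0.0266 in IT and 0.0173 in TE. In NT-D, MGAT5B was at 70.8 FPKM at OC, 80.5 at 1C, 97.2 at 2C, 101 at 4C, 4.21 at 8C, 1.48 at MO, 0.0854 in IT and 0.0331 in TE. NT-LW embryos held MGAT5B at 72.5 FPKM at 1C, 84.9 at 2C, 113 at 4C, 3.90 at 8C, 0.0879 at MO, 0 in IT and 0.0439 in TE. Its level fell in IV-D at both the 2C to 4C and the 4C to 8C step, whereas in both clone groups it was not called as changed from 2C to 4C and fell at 8C. In NT-LW its level was highest at 4C. In NT-D the levels at 2C and 4C were close, and their order turned with the size factors of these libraries, 0.7405 and 0.9163. MGAT5B at 4C was 5.09 (95% interval 4.78 to 5.41) times the IV-D level in NT-D and 5.66 (95% interval 5.33 to 6.02) times in NT-LW, and at 8C 12.9 (95% interval 8.62 to 20.0) and 11.9 (95% interval 7.95 to 18.6) times. The summed oocyte transcripts moved with it, with 409 FPKM in NT-D and 461 in NT-LW against 61.0 in IV-D at 8C, and their part in the result was not tested. An exon of the uncharacterized LOC110255964 overlaps MGAT5B on the opposite strand.

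MGAT5, which adds the β1,6 branch to N-glycans, fell in the same period. MGAT5 in IV-D stood at 10.9 FPKM at OC, 9.25 at 1C, 3.48 at 2C, 4.42 at 4C, 0.552 at 8C, 0.449 at MO, 0.556 in IT and 0.456 in TE. In NT-D, MGAT5 was at 16.3 FPKM at OC, 17.2 at 1C, 7.02 at 2C, 5.41 at 4C, 0.481 at 8C, 4.21 at MO, 0.518 in IT and 0.328 in TE. NT-LW embryos held MGAT5 at 19.9 FPKM at 1C, 12.6 at 2C, 6.54 at 4C, 1.295 at 8C, 0.762 at MO, 0.510 in IT and 0.107 in TE. Its level stayed below 1 FPKM from 8C on in IV-D, and the NT-D morula stood apart at 4.21 FPKM, a ratio to IV-D of 9.37 (95% interval 6.98 to 12.8). MGAT4A was among the most abundant members. MGAT4A in IV-D stood at 203 FPKM at OC, 209 at 1C, 76.8 at 2C, 37.8 at 4C, 21.3 at 8C, 39.4 at MO, 45.5 in IT and 41.5 in TE. In NT-D, MGAT4A was at 149.96 FPKM at OC, 101 at 1C, 94.6 at 2C, 65.5 at 4C, 46.6 at 8C, 31.3 at MO, 51.7 in IT and 53.2 in TE. NT-LW embryos held MGAT4A at 126 FPKM at 1C, 87.3 at 2C, 46.3 at 4C, 31.2 at 8C, 54.5 at MO, 40.2 in IT and 27.0 in TE. It was highest in oocytes and 1C embryos of each group and never below 21.3 FPKM. At 1C the NT-D level was 0.480 (95% interval 0.468 to 0.493) of that in IV-D, counted as lower, and at 8C it was 2.19 (95% interval 2.08 to 2.31) times as high.

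MGAT2, which adds the second antenna of complex N-glycans and lies in a single exon of 1341 bases at chr1:179478464-179479804, plus strand, was at or below 0.316 FPKM in every library up to 2C and at or above 2.12 FPKM in every one from 4C on. It had 0 fragments in IV-D OC and 1C and in NT-D OC, and rose to 2.49 FPKM at 4C and 6.92 at 8C in IV-D, 2.12 and 6.68 in NT-D, and 3.40 and 7.99 in NT-LW. The 4C to 8C calls of IV-D and NT-LW were lost after median-ratio scaling. It did not differ by the fold rule between clones and IV-D at either stage, with log2 differences of -0.16 and 0.33 at 4C and -0.04 and 0.18 at 8C for NT-D and NT-LW.

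The GCNT enzymes add the β1,6-linked branch of O-glycan cores, and 2 of 5 annotated genes were in the table. GCNT1 in IV-D stood at 12.7 FPKM at OC, 6.91 at 1C, 5.92 at 2C, 3.70 at 4C, 0.0560 at 8C, 12.03 at MO, 25.5 in IT and 24.4 in TE. In NT-D, GCNT1 was at 10.6 FPKM at OC, 12.1 at 1C, 7.75 at 2C, 7.15 at 4C, 1.37 at 8C, 56.4 at MO, 41.2 in IT and 43.8 in TE. NT-LW embryos held GCNT1 at 14.4 FPKM at 1C, 11.06 at 2C, 8.27 at 4C, 1.22 at 8C, 50.4 at MO, 38.3 in IT and 39.7 in TE. GCNT1, the core 2 enzyme, had a gap at 8C in every group, deepest in IV-D with 3 fragments, and returned at MO. At 8C and MO the GCNT1 ratio of NT-D to IV-D was 24.5 (95% interval 8.04 to 122) and 4.69 (95% interval 4.31 to 5.11), and that of NT-LW 21.8 (95% interval 7.05 to 109) and 4.19 (95% interval 3.84 to 4.57). The IV-D library at 8C holds so few fragments that its ratios have wide intervals, and the NT-LW call at 8C was lost after median-ratio scaling. An exon of PRUNE2 overlaps GCNT1 on the opposite strand.

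GCNT3, the mucin-type enzyme of the family, differed most between the blastocyst parts of IV-D. GCNT3 in IV-D stood at 0.989 FPKM at OC, 1.90 at 1C, 2.36 at 2C, 3.76 at 4C, 0.0979 at 8C, 0.827 at MO, 2.02 in IT and 25.1 in TE. In NT-D, GCNT3 was at 1.56 FPKM at OC, 4.29 at 1C, 8.37 at 2C, 10.1 at 4C, 2.14 at 8C, 6.90 at MO, 7.65 in IT and 6.23 in TE. NT-LW embryos held GCNT3 at 5.54 FPKM at 1C, 6.05 at 2C, 8.77 at 4C, 2.03 at 8C, 1.39 at MO, 8.91 in IT and 6.57 in TE. Only the IV-D TE library exceeded 10.1 FPKM. The IV-D ratio of TE to IT was 12.4 (95% interval 10.3 to 15.2), against 0.814 (95% interval 0.701 to 0.944) in NT-D and 0.737 (95% interval 0.643 to 0.843) in NT-LW. In cleavage the clones held more, at 4C 2.67 (95% interval 2.24 to 3.20) times the IV-D level in NT-D and 2.33 (95% interval 1.96 to 2.78) times in NT-LW, both counted as higher, the latter not after median-ratio scaling.

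The β1,3-linked transferases numbered 6 of 19 annotated genes. B3GNT4, which extends N-acetyllactosamine chains, had the widest range of all members, 8.27 on the log2(FPKM + 1) scale. B3GNT4 in IV-D stood at 44.5 FPKM at OC, 72.4 at 1C, 19.9 at 2C, 95.2 at 4C, 0.818 at 8C, 0.177 at MO, 1.44 in IT and 0 in TE. In NT-D, B3GNT4 was at 181 FPKM at OC, 216 at 1C, 68.9 at 2C, 165 at 4C, 15.3 at 8C, 54.7 at MO, 0.0441 in IT and 0 in TE. NT-LW embryos held B3GNT4 at 161 FPKM at 1C, 307 at 2C, 179 at 4C, 23.1 at 8C, 7.78 at MO, 0.304 in IT and 0.264 in TE. It stood higher in the recipient oocyte than in the IV-D oocyte and stayed higher in both clone groups at every stage up to MO, although at 4C, where IV-D had its own peak, the difference of NT-D and NT-LW did not pass the fold rule. B3GNT4 at 8C was 18.7 (95% interval 11.6 to 32.0) times the IV-D level in NT-D and 28.3 (95% interval 17.7 to 48.2) times in NT-LW, and at MO, where IV-D had 4 fragments, 309 (95% interval 120.3 to 1136) and 43.9 (95% interval 16.8 to 163) times. The oocyte transcripts moved with it at both stages, and their part was not tested. Exons of B3GNT4 and LRRC43 overlap on the same strand, and reads of the overlap could not be told apart.

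B3GNT2, the main enzyme of poly-N-acetyllactosamine extension, rose with the embryo instead. B3GNT2 in IV-D stood at 3.74 FPKM at OC, 5.92 at 1C, 1.11 at 2C, 18.8 at 4C, 38.2 at 8C, 50.4 at MO, 59.9 in IT and 34.9 in TE. In NT-D, B3GNT2 was at 5.49 FPKM at OC, 3.89 at 1C, 1.96 at 2C, 7.66 at 4C, 17.7 at 8C, 39.9 at MO, 58.8 in IT and 63.6 in TE. NT-LW embryos held B3GNT2 at 4.07 FPKM at 1C, 2.85 at 2C, 26.8 at 4C, 16.1 at 8C, 62.7 at MO, 65.1 in IT and 98.4 in TE. Every group rose between 2C and 4C, and NT-D reached the lowest 4C level. The 2C to 4C ratio of B3GNT2 was 17.0 (95% interval 13.4 to 21.8) in IV-D, 3.92 (95% interval 3.13 to 4.94) in NT-D and 9.41 (95% interval 8.01 to 11.098) in NT-LW. At 8C both clone groups were lower than IV-D, at 0.465 (95% interval 0.431 to 0.501) and 0.423 (95% interval 0.389 to 0.459) of its level, a call that median-ratio scaling removed for NT-D.

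B3GNT5, which starts the lacto-series of glycolipids, came up at 4C. B3GNT5 in IV-D stood at 0.952 FPKM at OC, 0.742 at 1C, 0.377 at 2C, 3.40 at 4C, 11.2 at 8C, 7.54 at MO, 4.21 in IT and 11.9 in TE. In NT-D, B3GNT5 was at 0.603 FPKM at OC, 0.289 at 1C, 0.386 at 2C, 4.76 at 4C, 2.78 at 8C, 11.7 at MO, 19.7 in IT and 15.2 in TE. NT-LW embryos held B3GNT5 at 0.896 FPKM at 1C, 0.888 at 2C, 5.55 at 4C, 1.77 at 8C, 6.99 at MO, 16.2 in IT and 13.2 in TE. At 8C it had its first peak in IV-D, while both clone groups stood below their own 4C values, with ratios to IV-D of 0.247 (95% interval 0.207 to 0.294) in NT-D and 0.158 (95% interval 0.1247 to 0.197) in NT-LW, both counted as lower, while in IT both stood higher, at 4.69 (95% interval 4.09 to 5.40) and 3.86 (95% interval 3.36 to 4.46) times. B3GALNT1, the globoside synthase, ranged from 6.23 to 30.1 FPKM over all libraries. It rose from 1C to 2C in IV-D, and NT-LW was higher than IV-D from 8C to TE, a call lost at MO after median-ratio scaling, and higher than NT-D at MO and in TE. B3GNT3 reached 4.71 FPKM and B3GAT2, a glucuronyltransferase, 3.82 FPKM at most, and B3GAT2 was above 1 FPKM only in libraries from OC to 2C. B3GAT2 shares exon positions with SMAP1 on the opposite strand.

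Of the β1,4-galactosyltransferases 3 of 10 annotated genes were measured, and B4GALT4 was higher than in IV-D at 4C, 8C, IT and TE in both clone groups and at MO in NT-LW. B4GALT4 in IV-D stood at 0.768 FPKM at OC, 0.897 at 1C, 1.23 at 2C, 2.07 at 4C, 9.59 at 8C, 8.08 at MO, 2.71 in IT and 2.69 in TE. In NT-D, B4GALT4 was at 0.682 FPKM at OC, 1.72 at 1C, 2.55 at 2C, 14.3 at 4C, 24.4 at 8C, 11.6 at MO, 10.9 in IT and 10.3 in TE. NT-LW embryos held B4GALT4 at 2.09 FPKM at 1C, 2.28 at 2C, 14.8 at 4C, 22.4 at 8C, 34.2 at MO, 16.9 in IT and 14.9 in TE. NT-D and NT-LW rose at 4C, 1 stage before IV-D, and remained above IV-D in both blastocyst parts. The B4GALT4 ratio to IV-D at 4C was 6.94 (95% interval 5.34 to 9.13) in NT-D and 7.16 (95% interval 5.55 to 9.39) in NT-LW, at 8C 2.54 (95% interval 2.26 to 2.87) and 2.33 (95% interval 2.06 to 2.64), and in TE 3.85 (95% interval 3.01 to 4.97) and 5.53 (95% interval 4.37 to 7.08). All of these were counted as higher, also after median-ratio scaling. The RefSeq annotation used here gives B4GALT4 2062 exon bases and 0 coding bases. Whether the counted fragments come from a transcript that encodes the enzyme was not tested.

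B4GALT5, the main synthase of lactosylceramide, was lowest at 8C in each group. B4GALT5 in IV-D stood at 5.74 FPKM at OC, 16.6 at 1C, 4.12 at 2C, 4.51 at 4C, 2.74 at 8C, 8.40 at MO, 14.4 in IT and 26.03 in TE. In NT-D, B4GALT5 was at 20.3 FPKM at OC, 35.9 at 1C, 8.26 at 2C, 6.88 at 4C, 3.56 at 8C, 10.7 at MO, 22.8 in IT and 20.0 in TE. NT-LW embryos held B4GALT5 at 16.2 FPKM at 1C, 22.3 at 2C, 11.8 at 4C, 2.37 at 8C, 6.43 at MO, 17.5 in IT and 15.4 in TE. The recipient oocyte held 3.54 (95% interval 3.11 to 4.03) times the level of the IV-D oocyte, counted as higher. B4GALT3 ranged from 0.0409 to 2.61 FPKM and reached 1 FPKM in NT-LW 2C only. Its exons overlap those of PPOX on the opposite strand.

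Sialyltransferases numbered 6 of 19 annotated genes, and the 2 most abundant were oocyte transcripts. ST6GALNAC3 adds sialic acid in α2,6 linkage to sialylated O-glycan cores and glycolipids. ST6GALNAC3 in IV-D stood at 94.9 FPKM at OC, 44.0 at 1C, 117 at 2C, 63.7 at 4C, 7.45 at 8C, 2.90 at MO, 2.77 in IT and 0.0428 in TE. In NT-D, ST6GALNAC3 was at 75.7 FPKM at OC, 52.2 at 1C, 120.2 at 2C, 162 at 4C, 27.1 at 8C, 17.2 at MO, 1.09 in IT and 0.103 in TE. NT-LW embryos held ST6GALNAC3 at 75.1 FPKM at 1C, 92.1 at 2C, 149.6 at 4C, 46.6 at 8C, 12.5 at MO, 3.99 in IT and 0.254 in TE. It peaked at 2C in IV-D and at 4C in both clone groups, and then fell in all of them. ST6GALNAC3 at 4C was 2.55 (95% interval 2.44 to 2.65) times the IV-D level in NT-D and 2.35 (95% interval 2.25 to 2.45) times in NT-LW, at 8C 3.63 (95% interval 3.28 to 4.03) and 6.25 (95% interval 5.66 to 6.91), and at MO 5.95 (95% interval 5.09 to 6.98) and 4.33 (95% interval 3.68 to 5.11) times.

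ST3GAL6, which caps lactosamine chains with α2,3-linked sialic acid, was also abundant in oocytes. ST3GAL6 in IV-D stood at 72.6 FPKM at OC, 45.9 at 1C, 103 at 2C, 33.7 at 4C, 1.77 at 8C, 0.292 at MO, 0.568 in IT and 0.0857 in TE. In NT-D, ST3GAL6 was at 57.2 FPKM at OC, 62.6 at 1C, 110.1 at 2C, 63.3 at 4C, 11.3 at 8C, 6.19 at MO, 0.351 in IT and 0.460 in TE. NT-LW embryos held ST3GAL6 at 69.3 FPKM at 1C, 136 at 2C, 52.9 at 4C, 10.1 at 8C, 2.76 at MO, 0.548 in IT and 0.711 in TE. All groups were highest at 2C. From 2C to 4C the clone levels of ST3GAL6 went down, called in NT-LW and, after median-ratio scaling, in NT-D, while those of ST6GALNAC3 went up without a call. The clones again held more at 8C and MO, where the ratio to IV-D was 6.40 (95% interval 5.35 to 7.70) and 21.2 (95% interval 14.1 to 33.4) in NT-D and 5.72 (95% interval 4.77 to 6.91) and 9.46 (95% interval 6.17 to 15.1) in NT-LW. The oocyte transcripts moved the same way at these stages, and their part in the ST3GAL6 and ST6GALNAC3 values was not tested. DCBLD2 overlaps an exon of ST3GAL6 on the opposite strand.

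ST3GAL5, the GM3 ganglioside synthase, was a late gene. ST3GAL5 in IV-D stood at 0.266 FPKM at OC, 0.342 at 1C, 0.679 at 2C, 0.597 at 4C, 1.73 at 8C, 9.68 at MO, 8.34 in IT and 0.696 in TE. In NT-D, ST3GAL5 was at 1.35 FPKM at OC, 1.05 at 1C, 0.549 at 2C, 0.535 at 4C, 1.18 at 8C, 13.5 at MO, 5.27 in IT and 1.12 in TE. NT-LW embryos held ST3GAL5 at 1.09 FPKM at 1C, 1.92 at 2C, 0.396 at 4C, 1.39 at 8C, 6.17 at MO, 5.94 in IT and 8.02 in TE. It was highest at MO in IV-D and NT-D and in TE in NT-LW. TE held 0.0835 (95% interval 0.0516 to 0.128) of the IT level in IV-D and 0.213 (95% interval 0.146 to 0.302) in NT-D, both counted as lower, and 1.35 (95% interval 1.14 to 1.60) times the IT level in NT-LW, not counted. ST6GALNAC4 and ST6GALNAC1 were likewise late, with highest levels of 8.83 and 7.46 FPKM. ST8SIA2, a polysialic acid synthase, exceeded 1 FPKM only in IV-D IT, at 1.295, and NT-D MO, at 3.42 FPKM.

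The ALG enzymes build the dolichol-linked precursor, and the table held 8 of 10 annotated genes, the most complete group of the family. At the 4C to 8C step of IV-D 5 of these 8 rose and 0 fell, with FPKM as deposited and after median-ratio scaling alike, where 35% of all genes rose and 28.1% fell. ALG3 in IV-D stood at 0.362 FPKM at OC, 0.514 at 1C, 0.212 at 2C, 0.461 at 4C, 25.4 at 8C, 19.7 at MO, 24.5 in IT and 10.6 in TE. In NT-D, ALG3 was at 0.915 FPKM at OC, 2.44 at 1C, 0.740 at 2C, 1.22 at 4C, 3.71 at 8C, 26.8 at MO, 14.4 in IT and 17.2 in TE. NT-LW embryos held ALG3 at 1.77 FPKM at 1C, 2.43 at 2C, 1.99 at 4C, 2.16 at 8C, 20.0 at MO, 11.5 in IT and 16.4 in TE. ALG3, which adds the first mannose on the lumenal side, rose at 8C in IV-D with a ratio of 55.1 (95% interval 34.7 to 93.2), and the clones reached a like level only at MO. NT-D also rose from 4C to 8C, from 1.22 to 3.71 FPKM, a call lost after median-ratio scaling. ALG3 at 8C was at 0.146 (95% interval 0.124 to 0.171) of the IV-D level in NT-D and 0.0850 (95% interval 0.0676 to 0.106) in NT-LW, the largest negative log2 differences of all members in both groups, and at MO it was 1.36 (95% interval 1.26 to 1.48) and 1.01 (95% interval 0.926 to 1.11) times.

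ALG6, which adds the first glucose, rose at the same step. ALG6 in IV-D stood at 34.7 FPKM at OC, 8.96 at 1C, 29.3 at 2C, 6.198 at 4C, 115 at 8C, 41.4 at MO, 36.1 in IT and 25.999 in TE. In NT-D, ALG6 was at 21.9 FPKM at OC, 9.10 at 1C, 19.1 at 2C, 11.3 at 4C, 61.0 at 8C, 43.7 at MO, 34.9 in IT and 38.0 in TE. NT-LW embryos held ALG6 at 14.9 FPKM at 1C, 13.9 at 2C, 7.62 at 4C, 44.0 at 8C, 46.9 at MO, 16.7 in IT and 17.1 in TE. IV-D had its highest level at 8C, and the ALG6 ratio to IV-D there was 0.530 (95% interval 0.505 to 0.556) in NT-D, not counted, and 0.382 (95% interval 0.361 to 0.405) in NT-LW, counted as lower. ALG5, which makes the glucose donor dolichyl-phosphate-glucose, rose in every group. ALG5 in IV-D stood at 5.36 FPKM at OC, 7.51 at 1C, 4.62 at 2C, 4.56 at 4C, 42.3 at 8C, 48.4 at MO, 51.6 in IT and 29.2 in TE. In NT-D, ALG5 was at 4.07 FPKM at OC, 2.22 at 1C, 5.65 at 2C, 6.08 at 4C, 44.1 at 8C, 51.0 at MO, 60.4 in IT and 58.5 in TE. NT-LW embryos held ALG5 at 4.07 FPKM at 1C, 3.35 at 2C, 3.94 at 4C, 30.9 at 8C, 66.9 at MO, 63.8 in IT and 65.6 in TE. Neither clone group differed from IV-D at 8C by the fold rule, with log2 differences for ALG5 of 0.06 in NT-D and -0.44 in NT-LW.

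ALG8, the next glucosyltransferase, was an exception, since it was high in the oocyte and fell in IV-D at 4C. Its level at 2C and 4C was 268 and 63.1 FPKM in IV-D, 231 and 279.8 in NT-D, and 214 and 227 in NT-LW, followed at 8C by 69.1, 82.0 and 113. The decline came 1 stage later in the clones, so that at 4C the ratio to IV-D was 4.44 (95% interval 4.22 to 4.67) in NT-D and 3.60 (95% interval 3.42 to 3.78) in NT-LW. ALG14, part of the enzyme that adds the second sugar, had the same order at 4C, 9.498 FPKM in IV-D against 35.3 in NT-D and 24.7 in NT-LW. ALG2 and ALG9, both mannosyltransferases, rose at 8C in IV-D to 16.2 and 6.23 FPKM, and ALG11, a mannosyltransferase too, ranged from 0.815 to 9.02 FPKM over all libraries.

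POMGNT1, which extends O-linked mannose and was the only one of 4 annotated genes of that group in the table, had 0 fragments in both oocyte libraries and rose at 8C in IV-D to 3.40 FPKM. NT-D stood at 0.630 and NT-LW at 0.692 FPKM there, ratios of 0.185 (95% interval 0.146 to 0.233) and 0.204 (95% interval 0.159 to 0.257), and at MO they reached 3.18 and 1.75 against 1.97 in IV-D. As with ALG3, the clones were lower at 8C and near IV-D at MO.

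The heparan sulfate enzymes EXT1 and EXTL3, 2 of 4 annotated genes, were present in the oocyte. EXT1 in IV-D stood at 20.0 FPKM at OC, 26.1 at 1C, 12.8 at 2C, 8.07 at 4C, 2.77 at 8C, 3.84 at MO, 2.25 in IT and 3.52 in TE. In NT-D, EXT1 was at 35.0 FPKM at OC, 35.2 at 1C, 13.4 at 2C, 12.5 at 4C, 2.97 at 8C, 7.06 at MO, 2.70 in IT and 2.82 in TE. NT-LW embryos held EXT1 at 25.9 FPKM at 1C, 20.7 at 2C, 8.86 at 4C, 4.53 at 8C, 3.45 at MO, 1.92 in IT and 2.42 in TE. EXT1, which polymerizes the chain, declined from 1C to 8C in IV-D and the clones, and its log2 difference to IV-D lay within 1 at 4C and 8C in both clone groups. EXTL3 in IV-D stood at 2.65 FPKM at OC, 2.88 at 1C, 2.97 at 2C, 3.79 at 4C, 0.506 at 8C, 0.672 at MO, 0.509 in IT and 0.120 in TE. In NT-D, EXTL3 was at 4.17 FPKM at OC, 9.35 at 1C, 5.12 at 2C, 6.15 at 4C, 0.893 at 8C, 2.63 at MO, 0.288 in IT and 0.173 in TE. NT-LW embryos held EXTL3 at 9.84 FPKM at 1C, 11.5 at 2C, 4.35 at 4C, 1.64 at 8C, 0.488 at MO, 0.234 in IT and 0.376 in TE. EXTL3, which starts the chain, was higher in the clones at 1C, with ratios of 3.24 (95% interval 2.82 to 3.73) in NT-D and 3.41 (95% interval 2.98 to 3.91) in NT-LW, both counted.

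Across the stages of IV-D, the step with the most changed members was 4C to 8C. There 24 of 35 compared members changed, 12 in each direction, and 63.2% of all genes did so (35% higher, 28.1% lower), so the share of members was close to the background. The 3 largest rises were those of ALG3, ALG6 and ALG2 and the 3 largest falls those of B3GNT4, MGAT5B and ST3GAL6, with log2 differences of 4.18, 4.01 and 3.14 and of -5.73, -3.98 and -3.65. At 2C to 4C 7 higher and 7 lower of 31 were counted, against 34.4% and 12.3% of all genes. FUT9, B3GNT2 and GALNT8 had the largest rises, 6.74, 3.23 and 2.45, and ALG6, ALG8 and MGAT5B the largest falls, -2.07, -2.07 and -1.73. Members were thus divided evenly at this step, where the genes that rose outnumbered those that fell in the whole table, and the median log2 difference was -0.02 over members and 0.46 over all genes. This step is sensitive to scaling: median-ratio scaling moved the median of all genes to -0.24 and the split of members to 6 higher and 15 lower.

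At the other IV-D steps 4 to 14 members changed. The counts were 2 higher and 2 lower of 27 at OC to 1C, where 13.7% and 7.64% of all genes were called, 21.4% in all. They were 6 higher and 8 lower of 27 at 1C to 2C, against 6.59% and 24.6%, and 8 higher and 5 lower of 33 at 8C to MO, against 12.3% and 13.6%. From MO the counts were 4 higher and 2 lower of 34 toward IT (15.3%) and 5 higher and 5 lower of 32 toward TE (36.6%). After median-ratio scaling the splits at OC to 1C, 1C to 2C and MO to TE became 1 and 3, 6 and 4, and 7 and 4. The members that rose at 8C to MO in IV-D were B3GNT3, B4GALT5, GALNT6, GALNT7, GALNT11, GCNT1, ST3GAL5 and ST6GALNAC1. The call of ST6GALNAC1 was lost after median-ratio scaling.

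In NT-D the 2C to 4C step changed few members and the later ones many. At 2C to 4C 6 of 33 members rose and 0 fell (all genes 17.3% and 8.36%), at 4C to 8C 10 higher and 14 lower of 35 (31.4% and 28.7%), and at 8C to MO 20 higher and 4 lower of 39 (31.6% and 12%). Median-ratio scaling changed these splits to 5 and 3, 6 and 16, and 13 and 7. Of the 20 members that rose at 8C to MO, ALG3, ALG9, POMGNT1, ST6GALNAC4 and B3GNT5 had risen at 4C to 8C in IV-D, and the others had not. At that IV-D step 12 of 35 compared members rose, so this overlap does not stand out. The NT-D calls of ALG9 and POMGNT1 at 8C to MO were lost after scaling. In either direction 24 and 24 members changed at the latter steps, against 60% and 43.6% of all genes. Oocyte transcripts moved both ways from 8C to MO in NT-D. BMP15 went from 48.4 to 116 FPKM and ZP4 from 100 to 18.7, while the sum of the list went from 409 to 381. Their part in the rises at this step was not tested. In NT-LW the counts were 7 higher and 6 lower of 37 at 2C to 4C (all genes 16.5% and 19.9%), 8 higher and 15 lower of 36 at 4C to 8C (28.1% and 25.6%) and 14 higher and 8 lower of 39 at 8C to MO (22.4% and 12.4%). At 4C to 8C falls outnumbered rises among the members of both clone groups, where rises outnumbered falls among all genes, with a median log2 difference of -0.57 over members against 0.13 over all genes in NT-D and -0.54 against 0.05 in NT-LW. After scaling the medians of all genes were -0.15 and -0.18, and those of the members -0.85 and -0.81, and rises made up 44.1% and 44.5% of the changes among all genes.

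From OC to 1C the counts were 2 higher and 1 lower of 32 (7.11% and 1.56% of all genes) in NT-D and 2 higher and 0 lower of 32 (7.29% and 1.22% of all genes) in NT-LW, that is 8.67% and 8.51% of all genes in either direction, and NT-LW had 1 higher and 0 lower of 33 from 1C to 2C, against 7.14% changed. NT-D differed at that step, with 3 higher and 8 lower of 32 (2.45% and 26.5% of all genes), a split that became 8 higher and 1 lower after median-ratio scaling. From the morula on, more members fell than rose on the FPKM scale. The counts were 3 higher and 12 lower of 39 (9.31% and 35.1% of all genes) toward IT and 2 higher and 12 lower of 39 (8.66% and 38.5% of all genes) toward TE in NT-D, in sum 44.4% and 47.1% of all genes, and 4 higher and 7 lower of 35 (9.1% and 28.1% of all genes) and 4 higher and 8 lower of 35 (8.79% and 40.3% of all genes) in NT-LW. These splits depended on the scale, since median-ratio scaling gave 7 higher and 7 lower toward IT and 7 higher and 9 lower toward TE in NT-D. In NT-LW, where it gave 5 higher and 3 lower and 11 higher and 4 lower, the larger direction turned at both steps. At OC to 1C it left 0 higher and 1 lower in NT-D and 1 higher and 0 lower in NT-LW.

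Clones and in vivo embryos were compared at each stage to locate where the family differs. Besides nuclear transfer, these embryos differed in the source and maturation of the oocytes, in culture and in sex. NT-LW differed in donor breed as well. These factors cannot be told apart. At 4C the members leaned upward in the clones although FUT9 was lower. In NT-D 8 of 32 members were higher and 3 lower, against 9.74% and 13.2% of all genes, and in NT-LW 12 of 31 were higher and 1 lower, against 10.8% and 9.43%. The members had a median log2 difference of 0.61 for NT-D and 0.64 for NT-LW, where it was -0.02 and 0.03 over all genes. B4GALT4, MGAT5B and ALG8 had the largest positive differences in both groups, 2.32, 2.29 and 2.13 in NT-D and 2.37, 2.44 and 1.83 in NT-LW. The members lower in NT-D were FUT9, GALNT8 and B3GNT2, with log2 differences of -5.31, -2.45 and -1.19, all 3 of which rose between 2C and 4C in IV-D. That rise and these differences both use the IV-D 4C library, so they are not independent. In NT-LW FUT9 alone was lower, at -1.75. Oocyte transcripts summed to 2289.7 FPKM in IV-D, 3051 in NT-D and 3243 in NT-LW at 4C. The genes of that list did not all go the same way. In this order of groups ZP4 stood at 187, 672 and 652 FPKM and BMP15 at 53.4, 355 and 389, but KPNA7 at 673, 331 and 381. ZAR1 and H1-8 were below IV-D in NT-D and above it in NT-LW. Fibroblast markers summed to 5.57, 32.1 and 31.4 FPKM at 4C, though to 25.8 FPKM in IV-D at 1C. Cumulus cell markers, mostly HAS2, summed to 2.84, 6.11 and 19.6 at 4C. The part of these markers and transcripts in the differences was not tested.

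At 8C 9 of 33 members were higher and 5 lower in NT-D (all genes 10.8% and 17.4%), and 11 of 36 higher and 6 lower in NT-LW (16.3% and 17.3%). After median-ratio scaling the NT-D split was 9 and 3. Higher in both comparisons, which share the IV-D library, were B3GNT4, MGAT5B, ST3GAL6 and ST6GALNAC3, whose levels in the IV-D oocyte were 44.5 to 94.9 FPKM, and B4GALT4, GALNT7, GCNT1 and GCNT3, whose levels there were 0.768 to 12.7 FPKM. In NT-D the largest differences were those of B3GNT4, ST3GAL6 and MGAT5B, 3.16, 2.15 and 1.97, and in NT-LW those of B3GNT4, ST6GALNAC3 and ST3GAL6, 3.73, 2.49 and 2.01. Lower members were ones that rose at 8C in IV-D or before. For those that rose at 8C, the rise and the difference both use the IV-D 8C library, so they are not independent. ALG3, B3GNT5 and POMGNT1 stood at -2.49, -1.69 and -1.43 in NT-D, and ALG3, B3GNT5 and ST6GALNAC4 at -3.06, -2.14 and -1.61 in NT-LW.

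At MO no member was lower in either clone group. In NT-D 10 of 39 members were higher (all genes 18.7% higher, 3.88% lower), and in NT-LW 9 of 35 (11.6% and 4.07%), or 7 higher and 1 lower, MGAT2, after median-ratio scaling. B3GNT4, GCNT1, ST3GAL6 and ST6GALNAC3 were counted as higher in both comparisons, which share the IV-D library. MGAT5, MGAT5B, GALNT13, EXTL3, GCNT3 and ST8SIA2 were counted in NT-D, MGAT5B and EXTL3 not after scaling. The NT-D morula is the library whose summed oocyte transcripts were 381 FPKM against 54.6 in NT-LW and 11.8 in IV-D, and trophectoderm markers summed to 667, 185 and 487. Their part in these values was not tested. Before 4C the counts in NT-D were 3 higher and 0 lower of 27 at OC (14.8% of all genes changed), 5 higher and 2 lower of 32 at 1C (21.9%) and 2 higher and 0 lower of 27 at 2C (8.38%). In NT-LW they were 4 higher and 0 lower of 32 at 1C (24.9%) and 9 higher and 1 lower of 33 at 2C (38.2%). Scaling turned these splits to 3 and 2, 2 and 2, and 2 and 1 in NT-D and to 1 and 2 and 5 and 5 in NT-LW. B3GNT4 was higher in all 5 of these comparisons, its NT-LW call at 1C being lost after scaling.

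In the blastocyst parts the counts were 4 higher and 2 lower of 33 in IT (24.9% of all genes changed) and 1 higher and 3 lower of 29 in TE (7.36%) for NT-D, and 4 higher and 4 lower of 33 (22.4%) and 6 higher and 2 lower of 29 (16.5%) for NT-LW. The NT-D split in TE became 3 and 3 after median-ratio scaling. B4GALT4 was higher and GCNT3 and FUT8 were lower in TE of both clone groups, and B3GNT5, B4GALT4 and GCNT3 were higher and ST6GALNAC4 lower in IT of both.

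**Figure D3:**
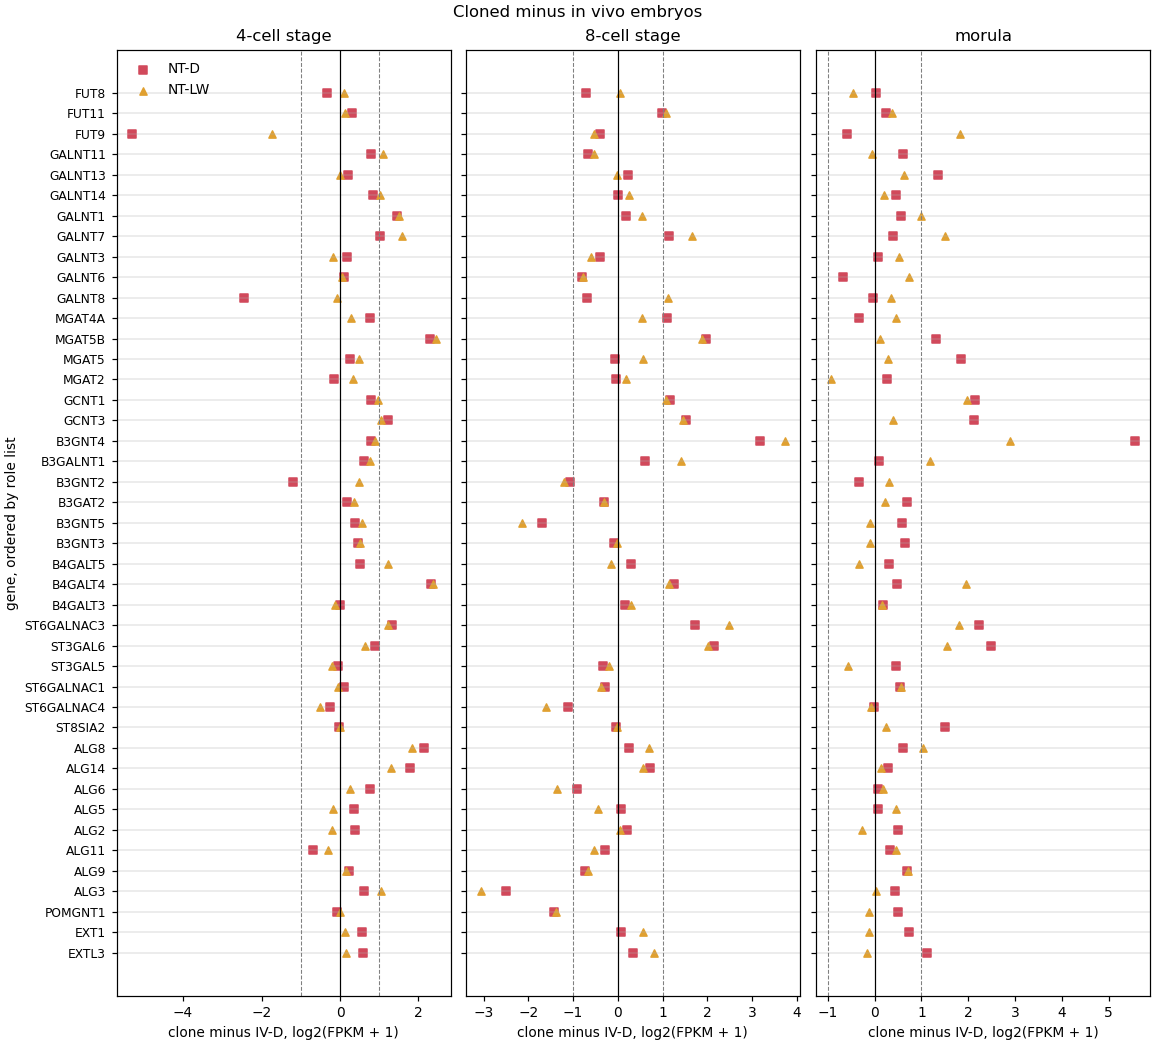
Difference in log2(FPKM + 1) of each clone library from the IV-D library at 4C, 8C and MO for the 43 members, with 1 library per point and dashed lines at the fold rule. FUT9 lies far to the left at 4C, ALG3 and B3GNT5 to the left at 8C, and B3GNT4 far to the right at 8C and MO.

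The donor breed was compared by setting NT-LW against NT-D, which differ in the donor cell line and share the recipient oocytes. At 4C 3 of 32 members were higher in NT-LW and 0 lower (all genes 3.42% and 0.972%), namely FUT9, GALNT8 and B3GNT2. The same members were lower in NT-D than in IV-D at that stage, but both comparisons use the NT-D 4C library and are not independent. The ratios of NT-LW to NT-D were 18.2 (95% interval 12.6 to 27.2) for FUT9 and 3.50 (95% interval 3.11 to 3.95) for B3GNT2, and at least 42.9-fold for GALNT8, which had 0 fragments in NT-D. At 1C 0 of 32 members were higher and 1 lower (6.39% of all genes changed). At 2C 5 of 33 were higher and 0 lower (16.1%), or 2 and 1 after median-ratio scaling. At 8C 1 of 35 was higher and 0 lower (6.15%). At MO 5 higher and 8 lower of 39 were counted (7.02% and 14.1% of all genes). The lower ones were B3GNT4, EXTL3, GCNT3, MGAT2, MGAT5, MGAT5B, ST3GAL5 and ST8SIA2, and the higher ones B3GALNT1, B4GALT4, FUT9, GALNT6 and GALNT7. The calls of MGAT5B and ST3GAL5 were lost after median-ratio scaling. Between these NT-LW and NT-D morulae the oocyte transcripts differed as well, 54.6 and 381 FPKM, as did the trophectoderm markers, 185 and 667, and their part in the result was not tested. In IT and TE 3 and 3 members changed (5.23% and 11.4% of all genes). With 1 cell line per breed, breed and cell line cannot be told apart.

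TE and IT were compared within each group to see which members differ between trophectoderm and the part that held the ICM. In IV-D 3 of 33 members were higher in TE, GCNT3, GALNT6 and B3GNT5, and 6 were lower, ALG3, B3GNT4, ST3GAL5, ST6GALNAC3, ST6GALNAC4 and ST8SIA2, against 9.83% and 18% of all genes. In either direction 27.3% of compared members changed, close to the 27.8% of all genes. GCNT3 and GALNT6 act on mucin-type O-glycans and B3GNT5 on glycolipids, and 4 of the 6 that were lower are sialyltransferases. One of these, ST8SIA2, stood at 1.295 FPKM in IT, close to the minimum of the rule. In IV-D the summed trophectoderm markers were 1348 FPKM in TE and 1424 in IT and the inner cell mass markers 3.84 and 33.4, and how far each part was free of the other was not tested. The levels in IT and TE were 8.24 and 0.583 FPKM for ST6GALNAC4, 2.22 and 10.3 for GALNT6, and 4.21 and 11.9 for B3GNT5. The ratios of TE to IT were 0.0708 (95% interval 0.0449 to 0.107), 4.64 (95% interval 3.92 to 5.52) and 2.83 (95% interval 2.43 to 3.31). In NT-D ST3GAL5 alone was counted, as lower in TE, of 30 compared (4.71% of all genes changed), and in NT-LW ST6GALNAC3 alone, as lower, of 31 (6.25%). After median-ratio scaling ST6GALNAC1 was counted as higher in NT-LW besides. The share of members counted in the clones, 3.33% and 3.23%, was close to that background.

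**Figure D4:**
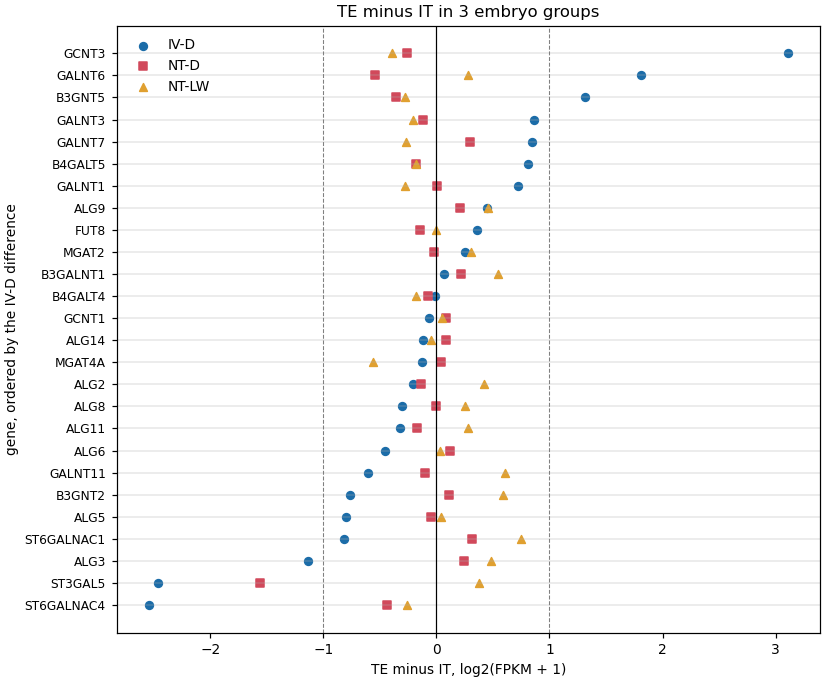
TE minus IT difference in log2(FPKM + 1) in IV-D, NT-D and NT-LW for the 26 members that reach 5 FPKM in a blastocyst library, ordered by the IV-D value, with 1 library per point in each part and dashed lines at the fold rule. IV-D points spread from -2.55 to 3.11, while 1 point of NT-D, ST3GAL5, and none of NT-LW pass a dashed line.

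The enzymes around the family, those that supply sugar donors, carry them into the Golgi, make dolichol, transfer and trim the N-glycan or build other glycans, were read from 111 listed symbols, of which 58 were in the table. At 4C to 8C of IV-D 35 of 55 compared genes rose and 11 fell, or 28 and 13 after median-ratio scaling, against 35% and 28.1% of all genes, with a median log2 difference of 1.42 against 0.25 over all genes. Of 11 oligosaccharyltransferase genes, which move the finished precursor from dolichol to protein, 9 rose and 0 fell, and of 6 genes for dolichol and the early precursor 5 rose and 1 fell, MPDU1. RPN2 and DDOST had the largest rises, from 6.25 to 138 FPKM and from 5.28 to 114 FPKM. UGP2, which makes UDP-glucose, and GNE, an enzyme of sialic acid synthesis, had the largest falls, from 45.6 to 5.33 and from 9.91 to 1.07 FPKM. The step before was mixed, with 10 genes higher and 12 lower of 48, or 8 and 20 after scaling, against 34.4% and 12.3% of all genes. The largest rises at 2C to 4C were those of OGA, 0.647 to 6.18 FPKM, and PGM3, 0.0995 to 3.32 FPKM, and the largest falls those of GNPNAT1, 65.0 to 12.8 FPKM, and NUS1, 7.80 to 1.45 FPKM.

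Clones and IV-D were compared over the same list. At 4C 10 of 50 were higher and 1 lower in NT-D than in IV-D, and 10 of 50 higher and 0 lower in NT-LW, where 9.74% and 13.2% of all genes were called in NT-D and 10.8% and 9.43% in NT-LW. The lower one in NT-D was GNPNAT1, 2.74 against 12.8 FPKM, and SLC35A3 and STT3B had the largest positive differences, 1.60 and 1.58 on the log2 scale. At 8C 3 of 55 were higher and 12 lower in NT-D, or 7 and 9 after median-ratio scaling, and 12 higher and 9 lower in NT-LW. Over all genes the shares were 10.8% and 17.4% in NT-D and 16.3% and 17.3% in NT-LW, so the shares of the list that were lower, and the share higher in NT-LW, were close to this background. PMM1, a phosphomannomutase, stood at 2.13 against 28.9 FPKM and DDOST at 14.6 against 114 FPKM in NT-D and IV-D, the largest negative differences, and SLC35A1, the CMP-sialic acid transporter, at 51.5 against 13.4 and UGP2 at 15.6 against 5.33 FPKM, the largest positive ones. Among the 11 oligosaccharyltransferase genes 0 were higher and 3 lower in NT-D at 8C, or 1 and 1 after scaling, and 0 higher and 3 lower in NT-LW, or 1 and 3.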

How the data were processed

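RNA of pooled oocytes or embryos was measured in 23 libraries, 1 per condition. The authors used the SMART-Seq v4 kit for cDNA and paired-end sequencing. They aligned the reads to Sscrofa11.1 with HISAT2 2.0.4, counted them per Ensembl gene with HTSeq 0.9.1, versions that the submitters' processing notes give as well, and deposited FPKM values. Whether counting used strand is not given in the sources used here. FPKM values of a library step by whole fragments, which gave back fragment numbers, counted lengths and depths (median 18896560 fragments), with a largest relative deviation of 4.71e-10 for members, and the procedure was tested on simulated data.

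Groups came from the sample labels. With 1 library per condition no p-value exists, and changes were called in 46 comparisons from a difference in log2(FPKM + 1) above 1, with 1 FPKM or more in the higher library. Shares of all genes called by that rule stand beside the counts. Ratio intervals are exact (Clopper-Pearson). A count of 0 was set to 3 fragments per library for a lower bound. PCR copies are not independent molecules, so these intervals and bounds cover counting error only.

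Named with all values were FUT9 and, in each of 10 roles, up to 3 members with the largest range among those reaching 10 FPKM, and the 3 largest changes per direction in the main comparisons. From the other pathway genes the 2 largest per direction were named. Members, lists and rules were chosen with earlier results of these data known, and the pathway and marker lists were written from general knowledge. A gene of the pathway lists is not reported here and was left out of that list's counts. Alternatives were a pseudocount of 0.1, no minimum FPKM, a minimum of 5, and median-ratio scaling over genes above 0 in all libraries. Symbols came from a table of Ensembl identifiers, and positions and sequences from RefSeq, Sscrofa11.1. Tools were pysam 0.24.0, scipy 1.17.1, matplotlib 3.10.9, pandas 2.3.3 and numpy 2.4.6 under python 3.11.15.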

Additional observations from a re-analysis of the deposited data

Results flagged for a closer look

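In 4 cases a member passed the fold rule in opposite directions in a pair of embryo groups at the same step. With 1 library per condition the difference between the groups was not tested.

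B3GNT5, the first enzyme of lacto-series glycolipids, had a log2 difference of -1.24 from 4C to 8C in NT-LW and of 1.47 in IV-D. B3GNT4, which extends N-acetyllactosamine chains, had a difference of -1.46 from 8C to MO in NT-LW and of 1.77 in NT-D. At that NT-D step the oocyte transcripts BMP15, KPNA7, GDF9, ZP2 and ZP3 went up as well. BMP15 went from 48.4 to 116 FPKM and KPNA7 from 9.64 to 48.4. ZP4 went down from 100 to 18.7 FPKM, OOEP from 26.6 to 6.87 and H1-8 from 206 to 160. Their part in the B3GNT4 value was not tested. From MO to IT, B3GNT4 had a difference of -5.74 in NT-D and of -2.75 in NT-LW, against 1.05 in IV-D, where its levels of 0.177 and 1.44 FPKM were close to the minimum of the rule.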

How the results depend on the processing

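Each of 46 counts of changed members was recomputed under 4 alternatives, and without a minimum FPKM all 46 kept within 1.5 times the value given. Median-ratio scaling moved 7 of these 46 by more. NT-LW against NT-D at 2C went from 5 to 3, NT-LW TE against IT from 1 to 2, NT-D against IV-D at OC from 3 to 5 and at 1C from 7 to 4, the OC to 1C step from 3 to 1 in NT-D and from 2 to 1 in NT-LW, and NT-LW 1C to 2C from 1 to 4. Of the members by stage of highest level, those of NT-D highest at 4C went from 6 to 2. With a minimum FPKM of 5, NT-LW against NT-D went from 5 to 3 at 2C and from 1 to 0 at 8C, and NT-LW TE against IT from 1 to 0. NT-D against IV-D went from 14 to 9 at 8C and from 10 to 5 at MO, and NT-LW against IV-D from 10 to 6 at 2C and from 17 to 10 at 8C. MO to IT and MO to TE of NT-D went from 15 to 9 and from 14 to 8, and 1C to 2C and 2C to 4C of NT-LW from 1 to 0 and from 13 to 8. With a pseudocount of 0.1, NT-LW against NT-D went from 5 to 8 at 2C, from 1 to 2 at 8C and from 3 to 5 in IT, and NT-D TE against IT from 1 to 2. NT-D against IV-D at OC went from 3 to 5, NT-LW against IV-D at 1C from 4 to 11, NT-D OC to 1C from 3 to 6 and NT-LW 1C to 2C from 1 to 3. A stricter minimum leaves fewer members to count and a smaller pseudocount widens differences of low values by construction, and for scaling the cause was not tested. Among 217 log2 differences of named members none that had been counted changed direction under median-ratio scaling or a pseudocount of 0.1. With IT alone for the blastocyst, the 12 counts by stage of highest level stayed within 1.5 times.

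No paired analysis was possible because each condition has 1 library, and leaving out a replicate would leave no library, so neither was run. Depth limits values below about 0.2 FPKM, where a gene of 1 kb has 3 fragments or fewer. Whether a difference exceeds variation between embryos is not known for any member.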
